A study of Homo sapiens with 24 samples.

Results

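HCT116 is an established human colorectal cancer cell line. The data described here compare a higher with a lower dose of 2 compounds in these cells: decitabine (DAC) at 5 µM against 120 nM, and a prodrug known in the labels by the code G668684, with the word ester in its sample titles, at 7 µM against 150 nM. The arrays were chosen by their titles, 2 for each compound and dose, which gave 8 of the 24 arrays in the series, 4 at a higher and 4 at a lower dose. All cells were exposed for 72 h to compound dissolved in dimethyl sulfoxide (DMSO) or, on 4 further arrays, to DMSO alone, in medium with serum, and total RNA was hybridized to Affymetrix expression arrays. The dose step was 41.7-fold for DAC and 46.7-fold for G668684, so the compounds were matched in neither dose, and nothing about its structure was read from the code name. Nothing in the labels ties replicates to separate cultures, so the p-values cover just the variation among these arrays, part or all of which may be technical, and every result refers to 1 cell line at 1 time point.

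DAC is a deoxycytidine analogue that is built into DNA during S phase and traps DNA methyltransferases there as covalent adducts, so that methylation is lost as cells divide and silenced genes, among them genes of the germ line, can become active. The trapped enzymes are also DNA lesions, and damaged DNA can stabilize the transcription factor p53, which HCT116 cells carry in a functional form. p53 raises genes such as CDKN1A, which encodes the cyclin-dependent kinase inhibitor p21, and through p21 lowers the genes of mitosis and DNA replication that depend on E2F, B-MYB and FOXM1.

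Among 25 gene lists, p53 targets had the highest median difference between doses and genes of mitosis the lowest. To show what these genes look like at their starts, the RefSeq promoters of the 3 mitotic genes of the list with the largest falls and of 3 p53 targets that rose are printed from 250 bases before to 50 bases after the start, 5′ to 3′ on the strand of the gene, in the build GRCh38.p14. Capitals mark matches on either strand to TTTGAA, the core of the cell cycle homology region found in many mitotic promoters, and to CCAAT, the box bound by the factor NF-Y. CENPF lies at chr1:214602945-214603244 on the plus strand, CENPE at chr4:103198294-103198593 on the minus strand and KIF15 at chr3:44761544-44761843 on the plus strand. FAS (the first of its starts in the table) lies at chr10:88990548-88990847 on the plus strand, TP53I3 at chr2:24084785-24085084 on the minus strand and CDKN1A at chr6:36678464-36678763 on the plus strand.
CENPF: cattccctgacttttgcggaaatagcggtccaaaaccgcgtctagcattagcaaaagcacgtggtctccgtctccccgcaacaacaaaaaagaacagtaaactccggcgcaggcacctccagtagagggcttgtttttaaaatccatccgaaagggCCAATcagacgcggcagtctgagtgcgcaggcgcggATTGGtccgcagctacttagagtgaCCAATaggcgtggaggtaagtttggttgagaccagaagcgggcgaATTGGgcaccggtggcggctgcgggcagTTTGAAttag
CENPE: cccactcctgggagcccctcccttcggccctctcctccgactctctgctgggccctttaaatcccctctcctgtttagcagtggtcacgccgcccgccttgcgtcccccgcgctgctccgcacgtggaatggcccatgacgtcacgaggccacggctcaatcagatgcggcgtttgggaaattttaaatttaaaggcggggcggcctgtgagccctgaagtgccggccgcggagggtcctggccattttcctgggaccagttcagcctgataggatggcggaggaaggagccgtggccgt
KIF15: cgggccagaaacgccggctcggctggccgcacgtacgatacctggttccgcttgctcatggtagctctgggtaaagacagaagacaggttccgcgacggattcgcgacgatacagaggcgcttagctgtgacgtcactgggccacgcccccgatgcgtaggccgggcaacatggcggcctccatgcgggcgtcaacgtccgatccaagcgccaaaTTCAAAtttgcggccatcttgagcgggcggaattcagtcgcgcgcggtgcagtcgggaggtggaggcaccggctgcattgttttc
FAS: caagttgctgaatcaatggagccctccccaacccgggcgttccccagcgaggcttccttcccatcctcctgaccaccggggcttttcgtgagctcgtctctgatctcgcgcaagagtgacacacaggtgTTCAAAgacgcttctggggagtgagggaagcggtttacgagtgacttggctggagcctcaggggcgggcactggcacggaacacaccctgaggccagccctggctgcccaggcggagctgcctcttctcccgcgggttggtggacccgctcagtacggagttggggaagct
TP53I3: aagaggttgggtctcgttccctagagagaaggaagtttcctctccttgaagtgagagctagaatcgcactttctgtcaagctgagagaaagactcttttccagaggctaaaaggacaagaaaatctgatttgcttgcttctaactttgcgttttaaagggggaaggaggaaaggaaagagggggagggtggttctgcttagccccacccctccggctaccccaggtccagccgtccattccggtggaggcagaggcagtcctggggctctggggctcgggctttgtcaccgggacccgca
CDKN1A: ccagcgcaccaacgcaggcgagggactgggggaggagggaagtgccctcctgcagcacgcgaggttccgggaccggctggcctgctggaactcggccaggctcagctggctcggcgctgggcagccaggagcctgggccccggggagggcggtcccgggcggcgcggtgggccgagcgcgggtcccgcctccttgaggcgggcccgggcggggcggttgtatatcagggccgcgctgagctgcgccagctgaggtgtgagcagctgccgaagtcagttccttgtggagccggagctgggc

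The CENPF window held 4 CCAAT matches, whose first bases lay at -94, -58, -33 and 13 from the start, and a TTTGAA at 41. KIF15 held a TTTGAA match on the reverse strand at -35 and FAS at -121, and the windows of CENPE, TP53I3 and CDKN1A held neither motif. TTTGAA was present in 38 of 54 promoters of the list of G2/M and mitosis genes (70.4%), in 1 of 41 of the p53 targets (2.4%) and in 2 of 46 of the S phase genes (4.3%), against 15.4% of all 27305 promoters and 11.2% of the 14136 of genes tested. CCAAT was present in 72.2% of the mitotic, 41.5% of the p53 and 54.3% of the S phase promoters, against 35.7% of all. These are letter matches in a window and describe the lists, not binding.

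Across 18055 genes, 2326 were higher (12.9%) and 1499 lower (8.3%) at the higher doses, 21.2% in all, with the compound as a covariate in limma and a Benjamini-Hochberg adjusted p under 0.05. With the replicate number as a block, these counts were 2985 and 2325. Changes of at least 2-fold were few: 86 genes were higher (0.476%) and 10 lower (0.0554%). In 2614 genes (14.5%) all 4 higher-dose arrays lay above all 4 lower-dose arrays, and in 2031 (11.2%) all lay below. Values are log2 of the deposited array intensities, differences carry the standard error (SE) of the limma fit and DMSO levels their SD (n = 4), and the median 95% interval of a difference reached 0.17 to each side. The median difference over all genes was -0.03.

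The arrays differed in ways that bear on these counts. Replicates correlated at 0.998 with DAC at 5 µM, 0.996 with G668684 at 7 µM, 0.995 with G668684 at 150 nM and 0.990 with DAC at 120 nM. Replicate 1 of DAC at 120 nM correlated more closely with replicate 1 of G668684 at 150 nM (0.996) than with its own replicate. RNA quality was read from the beta-actin probe sets as the 3 prime value less the 5 prime value, which lay between 0.03 and 0.14 at the higher and between -0.07 and 0.09 at the lower doses, lowest on those same first replicates, and its part in the results was not tested beyond its use as a covariate, which left 1266 higher and 748 lower genes. On the DMSO arrays the beta-actin value ran wider, from -0.03 on replicate 1 to 0.24 on replicate 3. The same measure from the GAPDH probe sets lay between -0.20 and -0.17 at the higher and between -0.19 and -0.15 at the lower doses. The epithelial markers EPCAM, CDH1, KRT8, KRT18 and KRT19 had mean levels of 10.37 or more in both dose classes, and VIL1 and CDX2 levels of 7.24 to 7.44. Of the epithelial markers CDH1, at 0.38, and KRT19, at 0.44, were called higher. KRT8, at -0.20, and KRT18, at -0.19, were called lower, neither of them with the beta-actin covariate. The dose classes overlapped for KRT8, and its call was lost under 10 of 23 alternatives, that of KRT18 under 2. EPCAM, at 0.29, VIL1 and CDX2 were not called. Of 19 blood cell markers 0 were called by limma, against 12.9% of all genes higher and 8.3% lower. At an unadjusted p under 0.05 in limma 4 of them were lower, beside 5988 of 18055 genes in either direction. The count called lower was 3 with the replicate block, 1 without replicate 2 of DAC at 120 nM and 2 without replicate 2 of G668684 at 150 nM.

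Targets of p53 were the list with the largest share of rises. Of 50 tested, 34 were higher (68%, against 12.9% of all genes) and 1 was lower, with a median difference of 0.40 against -0.03 over all genes. The mean level over the list was 9.87 and 9.90 with DAC at 5 µM, 9.84 and 9.89 with G668684 at 7 µM, 9.34 and 9.46 with DAC at 120 nM, and 9.32 and 9.42 with G668684 at 150 nM. All 4 higher-dose arrays lay above all 4 lower-dose arrays, and these above the DMSO arrays, at 9.05 to 9.25.

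TP53I3, an oxidoreductase gene induced by p53, read 10.50 and 10.45 with DAC at 5 µM, 10.41 and 10.44 with G668684 at 7 µM, 9.02 and 8.91 with DAC at 120 nM and 8.88 and 8.93 with G668684 at 150 nM. The arrays of the dose classes did not overlap, the replicates lay close together, and the DMSO level of 7.83 ± 0.16 was lower still. The rise from lower to higher dose was 1.51 ± 0.05, or 2.86-fold (adjusted p = 9.4e-07).

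CDKN1A read 12.07 and 12.14 with DAC at 5 µM, 12 and 12.13 with G668684 at 7 µM, 11.09 and 10.97 with DAC at 120 nM and 10.88 and 10.93 with G668684 at 150 nM. Its levels stood in steps, with DMSO at the bottom at 10.17 ± 0.14, lower doses between and higher doses at the top. The rise was 1.12 ± 0.05, or 2.17-fold (adjusted p = 2.2e-06). RRM2B, a p53-induced subunit of ribonucleotide reductase, read 10.69 and 10.69 with DAC at 5 µM and 10.71 and 10.62 with G668684 at 7 µM, against 9.11 and 9.89 with DAC at 120 nM and 9.34 and 9.70 with G668684 at 150 nM. It rose by 1.17 ± 0.14 (adjusted p = 0.00033), and its lower-dose arrays overlapped those of DMSO, at 9.52 ± 0.36. The first replicate was the lowest in DMSO and in each lower-dose group. TP53INP1, a p53-induced regulator of cell death and autophagy, rose by 1.22 ± 0.06 (2 of its 3 probe sets, 0.45 for their mean), BAX, a pore-forming protein of apoptosis, by 0.45 ± 0.08 and PMAIP1, which encodes the BH3-only protein NOXA, by 0.63 ± 0.05.

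FAS, a death receptor, had the largest rise of the list by its chosen probe set, which read 10.45 to 10.49 on the higher-dose and 8.74 to 9.02 on the lower-dose arrays and rose by 1.60 ± 0.07 (adjusted p = 2.1e-06). All 5 of its probe sets moved up. Some probe sets carry a suffix that marks a match to several transcripts (multi-transcript probe sets), and without these the difference for FAS was 0.06 (adjusted p = 0.66). ACTA2, which encodes smooth muscle actin and stood in the list of fibroblast markers, rose by 1.49 ± 0.11 with 1 of 2 probe sets and by 0.62 for their mean. Without multi-transcript probe sets 21 of 39 p53 targets were higher, against 1633 of 14821 genes. With the beta-actin covariate 26 of 50 were higher, against 1266 of 18055 genes. TP53I3 and CDKN1A had only multi-transcript probe sets and were not among the 39.

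**Figure D1:**
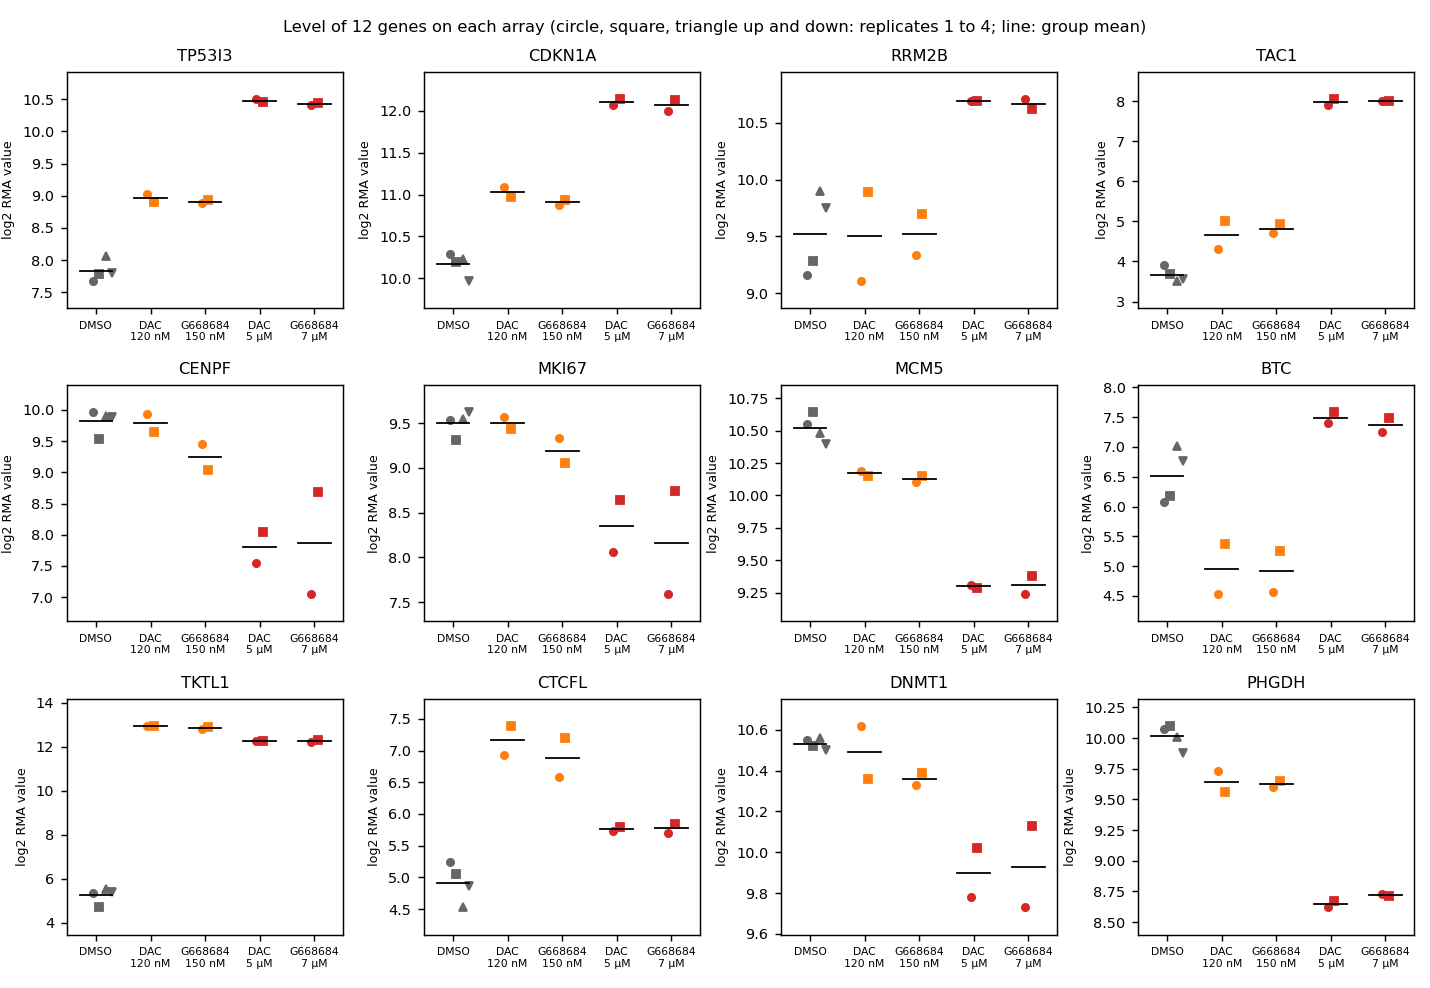
Level of 12 genes on every array (log2 RMA value, vertical axis) in DMSO and the 4 treated groups, with each symbol an array and each line a group mean. TP53I3 and CDKN1A step up from DMSO to the lower and to the higher doses, BTC dips at the lower doses, and TKTL1 is far above DMSO at every dose and slightly lower at the higher ones.

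Genes of G2/M and mitosis were the list with the largest share of falls. Of 62 tested, 49 were lower (79%, against 8.3% of all genes) and 0 higher by limma (0 also at an unadjusted p under 0.05), with a median of -0.50. The list's mean level was 9.39 and 9.47 with DAC at 5 µM, 9.29 and 9.55 with G668684 at 7 µM, 9.86 and 10.07 with DAC at 120 nM and 9.86 and 9.93 with G668684 at 150 nM. The dose classes did not overlap, whereas the lower-dose arrays overlapped the DMSO arrays, the highest of which stood at 10.32. Against DMSO the list's median difference was -0.23 at the lower and -0.69 at the higher doses.

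CENPF, a kinetochore protein that accumulates in G2, read 7.55 and 8.05 with DAC at 5 µM, 7.05 and 8.68 with G668684 at 7 µM, 9.93 and 9.65 with DAC at 120 nM and 9.46 and 9.04 with G668684 at 150 nM, beside a DMSO level of 9.82 ± 0.19. The classes did not overlap, but the G668684 replicates at 7 µM lay far apart. It fell by 1.69 ± 0.30 on the log2 scale (adjusted p = 0.0029), and with the beta-actin covariate the difference was -1.12 (adjusted p = 0.052). MKI67, the gene of the proliferation antigen Ki-67, had the same wide spread, with 8.06 and 8.64 with DAC at 5 µM and 7.59 and 8.74 with G668684 at 7 µM against 9.05 to 9.57 at the lower doses. It fell by 1.09 ± 0.22 (adjusted p = 0.0052, and 0.099 with the covariate, at -0.71).

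KIF15, a spindle kinesin, read 5.90 and 5.96 with DAC at 5 µM, 5.49 and 6.16 with G668684 at 7 µM, 7.09 and 7.16 with DAC at 120 nM and 6.91 and 6.81 with G668684 at 150 nM. The lower doses were below DMSO, at 7.90 ± 0.21, and the higher doses below both, with a difference of -1.12 ± 0.12 between doses (adjusted p = 0.0002). CENPE, a kinetochore motor, fell by 1.17 ± 0.16 (adjusted p = 0.00058), SMC4, a condensin subunit, by 0.96 ± 0.14 and CPAP, which builds centrioles, by 1.01 ± 0.18 (0.64 for the mean of its probe sets). The count of lower members in the list was 46 with the beta-actin covariate and 52 with the replicate block. Without multi-transcript probe sets it was 30 of 46, against 935 of 14821 genes.

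**Figure D2:**
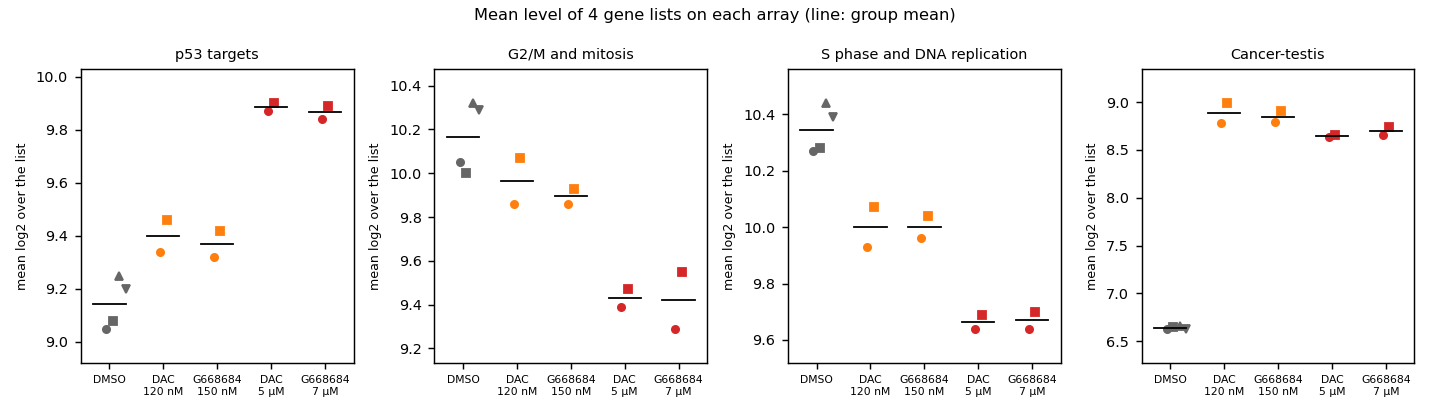
Mean log2 level over the members of 4 gene lists on each array (vertical axis) in DMSO and the 4 treated groups, with each symbol an array and each line a group mean. The p53 list is highest and the mitotic and S phase lists lowest at the higher doses, while the cancer-testis list is highest at the lower doses.

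Genes of S phase and DNA replication were lower as well, in 33 of 54 (61.1%, against 8.3% of all genes), and 1 was higher (1.85%, against 12.9%), with a median of -0.34. The higher count was 3 without replicate 2 of DAC at 120 nM and 0 without either array of DAC at 5 µM or replicate 1 of G668684 at 150 nM. Here the list's lower-dose arrays, at 9.93 to 10.07, lay below the DMSO arrays, at 10.27 to 10.44, and the higher-dose arrays, at 9.64 to 9.70, below both. MCM5, a subunit of the replicative helicase, read 9.31 and 9.29 with DAC at 5 µM, 9.24 and 9.38 with G668684 at 7 µM, 10.19 and 10.15 with DAC at 120 nM and 10.10 and 10.15 with G668684 at 150 nM. The replicates were close and the classes apart, with DMSO highest at 10.52 ± 0.10, and the gene fell by 0.84 ± 0.05 (adjusted p = 1.2e-05). MCM10, which activates that helicase, fell by 0.95 ± 0.10, ORC1, of the origin recognition complex, by 0.76 ± 0.07, and ATAD2, a chromatin ATPase, by 0.91 ± 0.09 (0.48, adjusted p = 0.073, without multi-transcript probe sets).

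Repair genes of the Fanconi and homologous recombination pathways were lower in 22 of 40 (55%, against 8.3% of all genes) and higher in 3 (7.5%, against 12.9%), with a median of -0.27. The 3 higher calls became 0 with the beta-actin covariate or without replicate 2 of DAC at 5 µM, and 1 without any 1 array of G668684. BRIP1, the Fanconi helicase, read 7.44 to 7.65 on the higher-dose and 8.14 to 8.50 on the lower-dose arrays, with DMSO at 9.31 ± 0.29, and fell by 0.78 ± 0.09 (adjusted p = 0.00019). RAD54B, a recombination motor, fell by 0.77 ± 0.06 and BLM, the Bloom helicase, by 0.69 ± 0.08. RAD50, of the end-processing complex, was called at -0.67 ± 0.20 (adjusted p = 0.035), but its arrays overlapped and the call was lost when any of 6 single arrays was left out (largest adjusted p = 0.12). In nucleotide metabolism 8 of 27 genes were higher (29.6%) and 6 lower (22.2%), or 3 lower without either array of DAC at 5 µM or replicate 2 of G668684 at 150 nM. SAMHD1, which breaks down deoxynucleotides, rose by 0.78 ± 0.08, to 9.45 to 9.52 from 8.55 to 8.88, with DMSO between at 9.01 ± 0.24, and TK1, thymidine kinase, fell by 0.54 ± 0.05.

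Of 18 cell cycle inhibitors 6 were higher (33.3%, against 12.9% of all genes), 4 lower (22.2%, against 8.3%) and 8 not called. With the beta-actin covariate 4 were higher and 2 lower, and 2 were lower without replicate 1 of DAC at 5 µM or of G668684 at either dose. CDKN2B, the inhibitor p15, rose by 1.01 ± 0.09 (0.54 for the mean of its probe sets), while CDKN1C, the inhibitor p57, was lower on every higher-dose array (8.79 to 8.94) than on any lower-dose array (9.52 to 9.66) and fell by 0.69 ± 0.06. Among apoptosis genes 5 of 33 were higher and 1 lower, or 15.2% and 3.03%, near or below the shares of all genes, and 8 and 5 with the replicate block. Without replicate 2 of DAC at 120 nM 9 were higher. The lower count was 0 without either array of DAC at 5 µM, replicate 1 of G668684 at 7 µM or replicate 2 of G668684 at 150 nM, and 2 without replicate 2 of G668684 at 7 µM.

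Cancer-testis genes are normally kept to the germ line by promoter methylation. Of 29 tested, 13 fell with dose (44.8%, against 8.3% of all genes), 16 were not called and 0 rose by limma (3 at an unadjusted p under 0.05, 2 called with the replicate block, 1 without replicate 1 of DAC at 5 µM and 3 without replicate 2 of DAC at 120 nM), with a median of -0.15. The list's median difference from DMSO, for which no test was made here, was 1.83 at the lower and 1.42 at the higher doses. Without multi-transcript probe sets 8 of the 19 members then tested were lower, against 935 of 14821 genes. With the beta-actin covariate 10 of the 29 were lower.

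TKTL1, a transketolase-like gene, read 12.24 and 12.25 with DAC at 5 µM, 12.19 and 12.32 with G668684 at 7 µM, 12.93 and 12.95 with DAC at 120 nM and 12.81 and 12.88 with G668684 at 150 nM, beside a DMSO level of 5.24 ± 0.37. The classes were apart by more than the spread within them, and the fall of 0.64 ± 0.04 (adjusted p = 1.5e-05) was small beside the distance from DMSO. CTCFL, the germ line paralogue of CTCF, read 5.70 to 5.85 on the higher-dose and 6.58 to 7.39 on the lower-dose arrays and fell by 1.26 ± 0.14 (adjusted p = 0.00022). Its higher-dose level was less than 1 log2 unit above its DMSO level of 4.92 ± 0.30, which lay under the filter value of 5. GCNA, a germ cell protease, fell by 0.60 ± 0.09, the antigen PRAME by 0.68 ± 0.06 and VCX2 by 1.12 ± 0.13, and MAGEC2 fell by 0.65 ± 0.07 (0.04 without multi-transcript probe sets).

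MAGEA4, another antigen of the cancer-testis list, read 10.95 to 11.13 on the higher-dose arrays, within the lower-dose range of 10.50 to 11.27, and the difference of 0.16 ± 0.17 did not pass the test (adjusted p = 0.54). With the second lower-dose arrays alone, an alternative chosen after seeing the data, it was -0.20 (adjusted p = 0.013), so its direction depends on the first ones. MAEL, a gene of the germ cell list that acts against transposons, was at 0.12 ± 0.08 (adjusted p = 0.35). Of 34 genes of germ cells and meiosis, 10 were higher (29.4%, against 12.9% of all genes) and 3 lower (8.82%, against 8.3%). The lower ones, named after their values were seen, were LIN28B, an RNA-binding gene, at -0.64 ± 0.09, TEX11 at -0.39 ± 0.06 and DPPA2 at -0.24 ± 0.07. TDRD9, a piRNA pathway helicase, read 6.61 to 6.89 against 5.78 to 5.89 and rose by 0.91 ± 0.07, and SYCP3, of the synaptonemal complex, rose by 0.77 ± 0.16 (0.37, adjusted p = 0.12, with the beta-actin covariate). DAZL, a translational regulator of germ cells, was called at 0.73 ± 0.18 (adjusted p = 0.015) from overlapping arrays, and the call was lost with that covariate (0.28, adjusted p = 0.3). It was also lost without replicate 1 of G668684 at 7 µM (0.64), without replicate 1 of G668684 at 150 nM (0.63) and against a log2 threshold of 0.25.

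The transcripts of the methylation machinery, which the compounds act on as proteins, were lower in 7 of 19 (36.8%, against 8.3% of all genes) and higher in 2 (10.5%, against 12.9%). With the beta-actin covariate 3 were lower and 0 higher, and against a log2 threshold of 0.25 the list's limma counts were 0 and 0. Without multi-transcript probe sets 2 of 13 were lower and 1 higher, beside 935 lower and 1633 higher of 14821 genes. Without replicate 1 of DAC at 5 µM or of G668684 at 7 µM 4 were lower. The higher count was 0 without replicate 2 of DAC at 5 µM or replicate 1 of G668684 at 150 nM, and 1 gene was higher without replicate 2 of G668684 at 150 nM. DNMT1, the maintenance methyltransferase, read 9.78 and 10.02 with DAC at 5 µM, 9.73 and 10.13 with G668684 at 7 µM, 10.62 and 10.36 with DAC at 120 nM and 10.33 and 10.39 with G668684 at 150 nM. The lower doses lay near DMSO, at 10.53 ± 0.03, and the higher doses below, with a fall of 0.51 ± 0.10 (adjusted p = 0.0048, and 0.092 with the beta-actin covariate). UHRF1, which brings DNMT1 to hemimethylated DNA, fell by 0.52 ± 0.09 (adjusted p = 0.002) and DNMT3B, a de novo methyltransferase, by 0.74 ± 0.13 (adjusted p = 0.003). DNMT3A, the other de novo enzyme, was called at -0.25 ± 0.08 (adjusted p = 0.046), a call lost under 14 of 24 alternatives, and DNMT3L, their cofactor, was at -0.12 ± 0.07 (adjusted p = 0.28).

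In the list of ATF4 and unfolded protein response genes 14 of 40 fell (35%, against 8.3% of all genes), 3 rose (7.5%, against 12.9%) and 23 were not called, with a median of -0.13. Without replicate 2 of DAC at 120 nM 5 rose. PHGDH, the first enzyme of serine synthesis, read 8.62 and 8.67 with DAC at 5 µM, 8.73 and 8.71 with G668684 at 7 µM, 9.73 and 9.56 with DAC at 120 nM and 9.60 and 9.65 with G668684 at 150 nM. The replicates were close, DMSO was highest at 10.01 ± 0.10, and the fall was 0.95 ± 0.06 (adjusted p = 1.1e-05). ASNS, asparagine synthetase, had a lower-dose mean of 11.93 beside a DMSO level of 11.93 ± 0.22 and fell by 0.89 ± 0.05 to the higher ones. ATF4 itself fell by 0.80 ± 0.06 and the cystine transporter SLC7A11 by 0.84 ± 0.06. The NRF2 list held 5 higher and 5 lower genes of 26 (19.2% each). The higher count was 2 with the beta-actin covariate or without either array of DAC at 5 µM, and 3 without replicate 1 of G668684 at either dose. The list held CBR1, a carbonyl reductase, up by 0.82 ± 0.08 and NQO1, a quinone reductase, down at -0.47 ± 0.04.

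**Figure D3:**
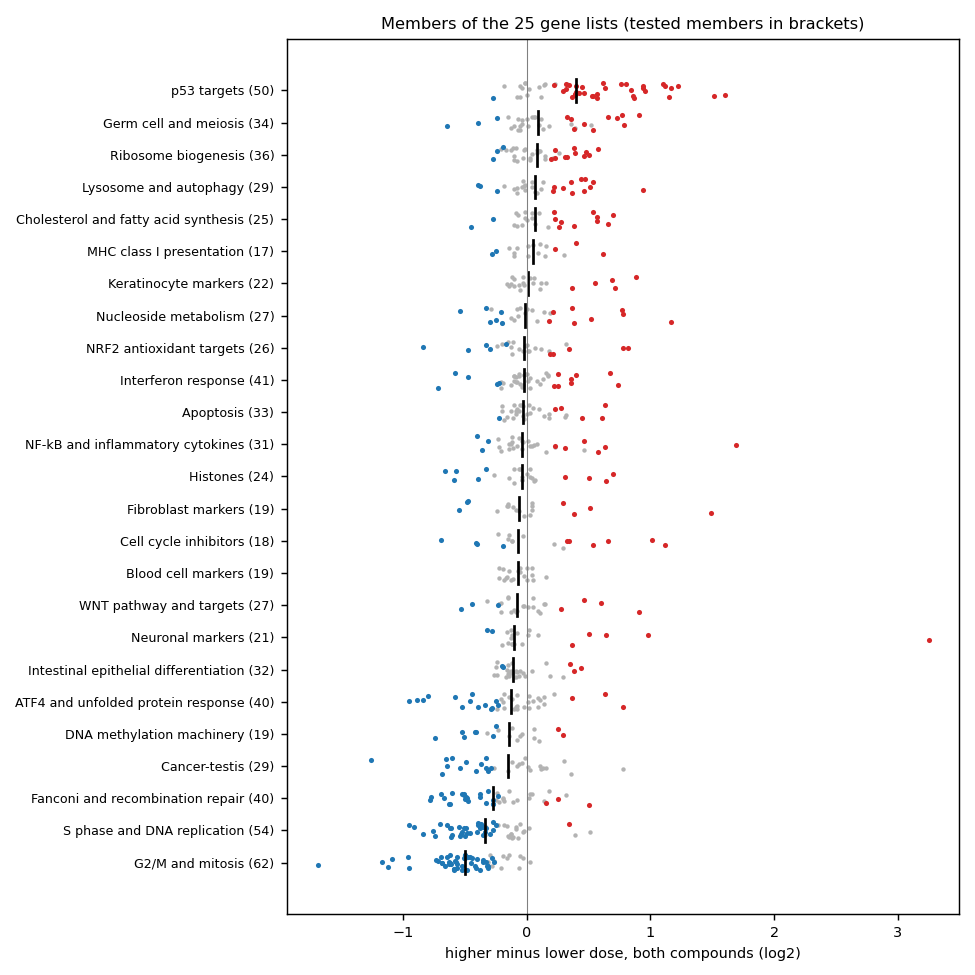
Difference between higher and lower dose (log2, both compounds, horizontal axis) of every tested member of the 25 gene lists, with each point a gene, red higher and blue lower at an adjusted p under 0.05, grey not called, and each bar the list median. The p53 list lies to the right at a median of 0.40 and the mitotic list to the left at -0.50, and most other lists straddle 0.

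Among single genes the largest rise was in TAC1, the precursor of the neuropeptide substance P. It read 7.90 and 8.05 with DAC at 5 µM, 8.01 and 8 with G668684 at 7 µM, 4.30 and 5.00 with DAC at 120 nM and 4.70 and 4.94 with G668684 at 150 nM. The gap between the classes was several times the spread within either, and the rise was 3.25 ± 0.13, or 9.55-fold (adjusted p = 2.1e-06). The lower-dose mean of 4.74 and the DMSO level of 3.67 ± 0.17 lay under the filter value of 5 and whether they lay above background is unknown, so the size of this fold is not settled.

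BTC, which encodes the epidermal growth factor receptor ligand betacellulin, read 7.41 and 7.58 with DAC at 5 µM, 7.25 and 7.49 with G668684 at 7 µM, 4.53 and 5.37 with DAC at 120 nM and 4.57 and 5.25 with G668684 at 150 nM. DMSO stood between, at 6.51 ± 0.46, so the lower doses were below and the higher doses above it, and the rise was 2.50 ± 0.19 (adjusted p = 2.1e-05). The lower-dose mean of 4.93 lay under the filter value of 5, so the sizes of this rise and of the dip below DMSO are not settled. DIRAS3, an imprinted small GTPase gene, also had its DMSO level, 6.76 ± 0.24, between the lower-dose range of 6.11 to 6.34 and the higher-dose range of 7.69 to 8.10, and rose by 1.66 ± 0.10. KCNV2, a potassium channel subunit, rose by 2.31 ± 0.17 and KLB, the co-receptor of endocrine fibroblast growth factors, by 1.75 ± 0.08 from a lower-dose level of 5.32 beside 5.11 ± 0.21 in DMSO. CDO1, cysteine dioxygenase, rose by 1.75 ± 0.14 (0.88 for the mean of its probe sets), and MMP1, a collagenase, by 1.69 ± 0.16 from 4.32, under the filter value. KLK10, a kallikrein, was at 1.71 ± 0.07, but at 0.19 (adjusted p = 0.27) without multi-transcript probe sets. ANXA10, an annexin, and HS3ST1, a heparan sulfate sulfotransferase, stood below DMSO at both doses and higher at the higher one, by 0.55 ± 0.08 and 0.95 ± 0.17, the latter with 2 of 3 probe sets and 0.24 for their mean.

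The remaining lists are read against 12.9% higher and 8.3% lower over all genes. Under an alternative those shares move too: with the beta-actin covariate 1266 of 18055 genes were higher and 748 lower. A smaller count of a list under that covariate is therefore not by itself a trait of the list. The same holds for the lists above. Among 25 cholesterol and fatty acid genes 10 were higher (40%) and 2 lower (8%), with SQLE, squalene epoxidase, at 0.70 ± 0.05 and ELOVL6, a fatty acid elongase, at 0.66 ± 0.09, the latter back to its DMSO level of 10.91 ± 0.15 from 10.21. With the beta-actin covariate 5 were higher. Of 29 genes of lysosomes and autophagy 11 were higher (37.9%) and 3 lower (10.3%), or 9 and 0 with the beta-actin covariate, with WIPI1, an autophagy protein, at 0.94 ± 0.10 and NEU1, a sialidase, at 0.54 ± 0.07. Of 36 genes of ribosome biogenesis 11 were higher (30.6%) and 3 lower (8.33%), and with the beta-actin covariate 6 were higher. The higher count was 7 without either array of DAC at 5 µM, either of G668684 at 7 µM or replicate 1 of G668684 at 150 nM. The lower count was 5 without replicate 2 of G668684 at 7 µM and 1 without any other array but replicate 2 of DAC at 120 nM. Of 22 keratinocyte markers 5 were higher (22.7%) and 0 lower by limma, the same counts as at an unadjusted p under 0.05, among them DSC3, a desmosomal cadherin, at 0.88 ± 0.09 and KRT15 at 0.55 ± 0.07. Of 41 interferon response genes 8 were higher (19.5%) and 5 lower (12.2%). The counts were 5 and 3 with the beta-actin covariate and without replicate 1 of DAC at 5 µM or of G668684 at 150 nM. The lower count was also 3 without replicate 2 of DAC at 5 µM or replicate 1 of G668684 at 7 µM. IRF7, a transcription factor of that response, was at 0.74 ± 0.08 and IFITM1, which restricts virus entry, at -0.72 ± 0.09. Of 24 histone genes 4 were higher (16.7%) and 5 lower (20.8%), with H2BC21 at 0.64 ± 0.11 and the linker histone gene H1-10 at -0.66 ± 0.08.

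Each compound's own dose contrast was taken from a model with a mean per group. DAC had 1045 genes higher (5.79%) and 573 lower (3.17%), or 8.96% either way, and G668684 847 higher (4.69%) and 325 lower (1.8%), or 6.49% either way. With the replicate block the counts were 1666 and 1146 for DAC and 1525 and 687 for G668684. The counts depended on single arrays: those of DAC were 257 and 47 without replicate 1 and 140 and 44 without replicate 2 of DAC at 5 µM, and 2073 and 1146 without replicate 2 of DAC at 120 nM. Those of G668684 moved by over 1.5 times when any of the 8 arrays was left out, from 163 and 44 without replicate 1 of G668684 at 150 nM to 1626 and 621 without replicate 2 of DAC at 120 nM. Of the calls, 977 were shared, which is 60.4% of those of DAC and 83.4% of those of G668684, and all 977 had the same direction. Both contrasts used a common estimate of each gene's spread, so this overlap is not that of independent tests. Across genes, which are not independent replicates, the contrasts correlated at 0.85 (Pearson) and 0.72 (Spearman), from arrays that the contrasts do not share, although same-numbered arrays of the compounds deviated together.

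The difference between the compounds' contrasts was tested directly and 0 of 18055 genes were called by limma (0%), with 265 at an unadjusted p under 0.05 and a smallest adjusted p of 0.14. Without replicate 1 of DAC at 120 nM 1 gene was called. The median interval of this difference reached 0.35 to each side, and it is not adjusted for the number of genes tested. Differences larger than 0.35 could therefore also go uncalled. With G668684 less DAC, CENPE was at 0.67 ± 0.25 and STK31, of the germ cell list, at 0.61 ± 0.15, and neither was called. The 0 calls thus do not show that the compounds acted alike, and the dose steps differed. Side by side, TAC1 rose by 3.32 ± 0.20 with DAC and 3.18 ± 0.20 with G668684, TP53I3 by 1.51 and 1.52, and CDKN1A by 1.08 and 1.16. CENPE fell by 1.51 with DAC and 0.84 with G668684. CENPF fell by 1.99 ± 0.43 with DAC, and its difference of -1.39 ± 0.43 with G668684 was not called by limma (adjusted p = 0.1). Of the 50 p53 targets tested, 24 were higher with DAC and 23 with G668684, against 5.79% and 4.69% of all genes. Of the 62 mitotic genes, 34 were lower with DAC and 26 with G668684, against 3.17% and 1.8% of all genes.

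**Figure D4:**
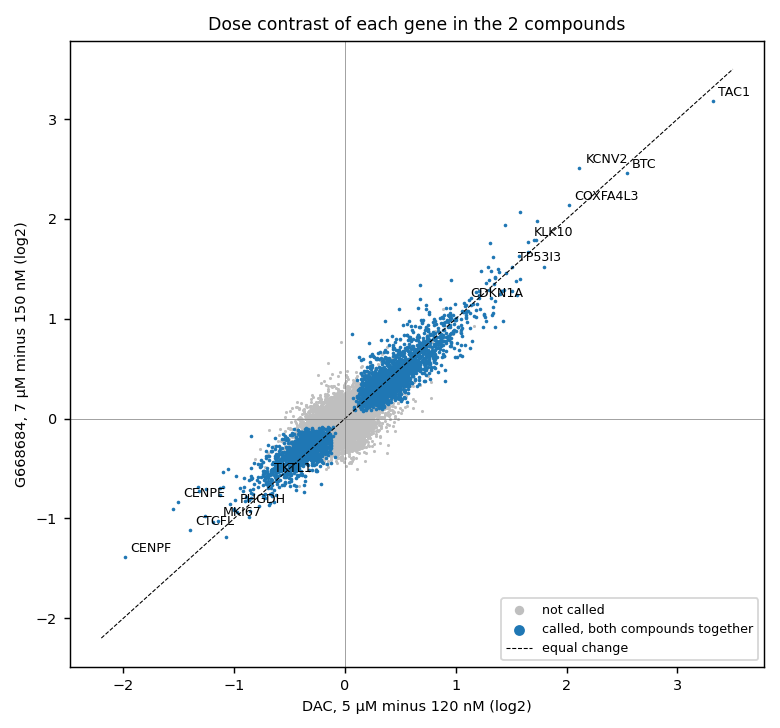
Difference between higher and lower dose of each of 18055 genes with DAC (horizontal axis, log2) and with G668684 (vertical axis, log2), with genes called over both compounds in blue and the dashed line marking equal change. Points lie along the line, from CENPF at the lower left to TAC1 at the upper right.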

How the data were processed

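The 8 arrays of DAC and G668684 and the 4 DMSO arrays were grouped by their titles. Per the submitters' processing notes, RMA was run by the authors with Affymetrix Expression Console 1.1. The deposited table gives a linear intensity for each of 54675 probe sets, which was converted to log2 (values lay on hundredths within 0.001 in 100% of cases). RMA had already normalized the arrays. No detection calls were used here, so background cannot be told from low expression, and the number of arrays limits the precision. For the probe sets no genome build was used.

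Genes were named through the probe table of the array: 62 probe sets were controls, 41091 had 1 gene symbol, 1801 several and 11721 were not listed, and 41037 matched RefSeq genes of GRCh38.p14. A probe set was kept at a log2 of 5 on at least 2 of the 24 arrays (35146), and the one with the highest mean stood for each of 18055 genes. limma 3.58.1 in R 4.3.3 (lmFit, eBayes with an intensity trend) was fitted to the 8 arrays with compound and dose (5 residual and 5.07 prior degrees of freedom), and with a mean per group for each compound and the difference between them (4 and 4.76). Tests were 2-sided with Benjamini-Hochberg adjustment over all genes, and intervals are 95% intervals. The fit was also run on simulated data with independent noise on each array. That setting lacks the shared deviations of same-numbered arrays described next, so it does not show how the fit performs with them.

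Deviations of same-numbered replicates from their group means correlated at 0.25 to 0.61 in all 6 pairs of the 4 groups. The fit with the numbers of the titles as a block was therefore run as an alternative. With 2 replicates per group these correlations do not establish that the numbers pair arrays, and the labels state no pairing.

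The members and the 25 gene lists (897 entries, 775 tested) were chosen with earlier results of these data known, and list counts are descriptions. Named genes are part of a pool of 121: the 12 largest rises and 12 largest falls among called genes whose dose classes do not overlap, up to 4 called members of each list, 13 fixed genes and the defining epithelial markers. Of the 54 with more than 1 kept probe set, 44 had all probe sets moving 1 way. Of the promoter table, 1 promoter per symbol was used. Python 3.11.15 with pandas 2.3.3 and matplotlib 3.10.9 drew the figures.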

Additional observations from a re-analysis of the deposited data

Results flagged for a closer look

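Of the 121 named genes, 4 had a DMSO array set apart from the other 3 by more than the 95% critical value of Dixon's test, and chance sets apart about 1 in 20 groups. PLCXD2 stood at 6.20 log2 on replicate 1, S100A4 at 11.16 on replicate 1, ENO2 at 7.67 on replicate 1 and LGALS4 at 7.04 on replicate 3. These are levels in the untreated background and enter none of the dose contrasts.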

How the results depend on the processing

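Of the 115 named genes that were called, 73 kept their call under all alternatives counted here and 42 lost it under at least 1. The fits of arrays numbered 1 alone or 2 alone, given below, were left out of this count, so it does not show that calls hold under them. Some genes had only multi-transcript probe sets, among them TP53I3, CDKN1A, TAC1, TKTL1, CENPF and MKI67. The alternative without such probe sets could not be run for these. With the beta-actin covariate the counts of higher and lower genes were 1266 and 748 over both compounds, 676 and 352 with DAC, and 425 and 181 with G668684, and 1836 of the 3825 calls over both compounds were kept. Without multi-transcript probe sets, where 14821 genes were tested, 1633 genes were higher and 935 lower over both compounds. The higher and lower counts were then 679 and 304 with DAC, and 517 and 174 with G668684. In the fit of all 24 arrays the counts were 1577 and 1073 with DAC and 1405 and 681 with G668684. With the replicate block 2325 genes were lower over both compounds, the counts were 1666 and 1146 with DAC and 1525 and 687 with G668684, all 3825 calls were kept, and among the named genes only the call of EPCAM changed (adjusted p = 0.044). Against a log2 threshold of 0.25 in place of 0, 514 genes were higher and 180 lower. Chosen after seeing the data, arrays numbered 1 alone gave 966 and 340, and arrays numbered 2 alone 0 and 0 by limma, with 4424 at an unadjusted p under 0.05 and 1 residual degree of freedom in each. Centring arrays on their medians gave 355 lower genes with DAC and 176 with G668684.

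Leaving out 1 array gave 1623 to 2836 higher and 899 to 1814 lower genes over both compounds, 140 to 2073 and 44 to 1146 with DAC, 163 to 1626 and 44 to 621 with G668684, and 0 to 1 higher and 0 to 0 lower for the difference between compounds. Lower genes over both compounds were 899 and 960 without replicate 1 or 2 of DAC at 5 µM and 972 without replicate 1 of G668684 at 7 µM. The share of calls that were higher was 60.8% over both compounds, 53.4% after quantile normalization and 68.6% after median centring, and with G668684 72.3%, 61.2% and 80.4%. Directions turned for 4 genes that were not called: VIL1 at 0.00 for the mean of its probe sets and -0.09 to 0.02 when single arrays were left out (0.02 without replicate 1 of G668684 at 150 nM), MAGEA4 at -0.27, MAEL at -0.07 and EPCAM at -0.03 with the beta-actin covariate, and MAGEA4 at -0.20 with the second lower-dose arrays alone, also chosen after seeing the data. Levels under a log2 of 5 limit the size of 7 of the 86 rises of at least 2-fold.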

Other observations

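WNT pathway genes and neuronal markers, 2 lists that the text has not described, held single genes that rose. Over all genes 12.9% were higher and 8.3% lower. Of 27 genes of the WNT pathway 4 were higher and 3 lower (14.8% and 11.1%, near those shares, median -0.08), or 4 and 5 with the replicate block. DKK1, a secreted WNT inhibitor, read 13.29 to 13.31 at the higher and 12.53 to 12.81 at the lower doses, with DMSO at 11.93 ± 0.24 (SD, n = 4), and rose by 0.60 ± 0.06 (SE). WIF1, another secreted inhibitor, rose by 0.91 ± 0.12 from a lower-dose mean of 4.58, under the filter value of 5, and RNF43, a ligase that removes WNT receptors, was at -0.53 ± 0.10. Of 21 neuronal markers 5 were higher (23.8%) and 2 lower (9.52%), with a median of -0.10 and 8 differences above 0. The lower count was 1 without any array but replicate 2 of DAC at 120 nM and replicate 1 of G668684 at 7 µM. Beside TAC1, SCG2, a secretogranin, was at 0.98 ± 0.10. Its mean was 6.09 at the lower and 7.07 at the higher doses, with DMSO at 6.85 ± 0.13, so the lower doses lay below DMSO.

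Of the fibroblast markers 4 of 19 were higher and 3 lower (21.1% and 15.8%). VIM, vimentin, stood at 11.15 to 11.29 at the higher and 11.67 to 11.81 at the lower doses, both above its DMSO level of 7.95 ± 0.13, and S100A4 was at 0.51 ± 0.06, back to its DMSO level of 11.28 ± 0.08 from 10.84. Of 31 NF-kB and cytokine genes 6 were higher and 3 lower (19.4% and 9.68%), or 7 and 5 with the replicate block, with CXCL16 at 0.58 ± 0.06. Of 17 genes of MHC class I presentation 3 were higher and 2 lower (17.6% and 11.8%, near the shares of all genes), with 6 higher without replicate 1 of DAC at 120 nM and 7 with the second lower-dose arrays alone. The lower count was 0 without replicate 2 of DAC at 5 µM and 1 without replicate 1 of any of the 4 groups. The list held PSMB10, an immunoproteasome subunit, at 0.62 ± 0.05, and of 32 genes of intestinal differentiation 3 were higher and 2 lower (9.38% and 6.25%). These became 5 higher without replicate 2 of DAC at 120 nM, 4 lower without replicate 2 of G668684 at 150 nM, and 1 lower without either array of DAC at 5 µM or replicate 1 of DAC at 120 nM.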
